A study of Mus musculus with 5 samples.

Results

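The comparison described here sets ventilated mice lacking claudin-4, whose lung injury the study gives as similar to that of wild type (KO_VILIlow), against ventilated wild type mice (WT_VILI). Its members are the genes of the authors' deposited table for this pair with a log2 mean abundance of at least 1, in CPM (reads of a gene scaled to library size) averaged over both groups. They number 13635 of 21590 genes in the table. The authors' deposited table gives a fold change of exactly 0 and a p of 1 for 177 of them, Sftpc, Scgb1a1 and Lyz2 included, so 13458 genes count as tested and no statement on the 177 is made. The last members inside the abundance limit, Osbp2, Ncapg and Efna3, stood at 1.02 in the authors' deposited table, and the first outside it, Ankrd37, Impa2 and Zbtbd6, at 0.988.

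RNA was sequenced from whole lungs of 5 groups of mice, all on a mixed background of 129S6, C57BL/6 and BALB/c. KO_VILIlow and KO_VILIhigh were Cldn4 knockout (KO) mice ventilated for 2 h at 40 cmH2O, an overdistending protocol that causes ventilator-induced lung injury (VILI), and the study told them apart by an injury similar to (KO_VILIlow) or higher than (KO_VILIhigh) that of wild type. WT_VILI mice were wild type (WT) and had the same ventilation, while KO_noVILI and WT_noVILI mice had none. The design text speaks of duplicates, which makes 2 libraries per group, and the labels hold 1 record per group. No source says that the libraries came from separate animals, so p-values may measure technical spread only, and the depth per library is unknown. The knockout is not described as limited to any cell type, ages and sexes are not given in the sources used here, and KO_VILIlow is set apart by an outcome, its injury.

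Claudin-4 is a tight junction protein of epithelial cells, one of a family of membrane proteins that seal the gap between neighbouring cells and set which ions pass through it. In the lung it is made by alveolar and airway epithelium, and its transcript is known to rise after stretch injury. High-pressure ventilation is known to induce immediate early genes, the first to answer a stimulus, then cytokines and chemokines that draw leukocytes, and genes downstream of interleukin-6 (IL-6) and nuclear factor kB (NF-kB). Because whole lungs were used, transcripts of blood, lymphocytes, vessel walls and the cardiac muscle that ensheathes the pulmonary veins of mice are measured beside those of the alveoli.

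The targeted gene was near 0 in the knockout groups. The level of each group was computed back from the authors' deposited tables and is comparable between groups for 1 gene, but not between genes, since CPM is not per length. Cldn4 stood at 0.0212 CPM in KO_VILIlow and 0.122 CPM in KO_VILIhigh, against 140 CPM in WT_VILI, and at 0.14 CPM in KO_noVILI, against 9.38 CPM in WT_noVILI (adjusted p = 3.84e-122 for KO_VILIlow against WT_VILI in the authors' deposited table). The knockout levels are near the floor of such estimates, so no fold is given. The labels list this table under the KO_VILIlow record and the WT_noVILI record, not under WT_VILI. The level on its WT side nevertheless differed from WT_VILI of the authors' WT_VILI table by a median of 0.0486 log2 over 10326 genes, and from WT_noVILI by 0.206 log2, so the table was read, against the labels, as a comparison with WT_VILI. Xist, the RNA that silences an X chromosome in female cells, measured 4.08 CPM in KO_VILIlow and 5.71 CPM in WT_VILI, and the Y-linked helicase gene Ddx3y at 107 CPM and 114 CPM in the same groups, all rebuilt from the authors' deposited tables. Both groups thus had the low Xist and high Ddx3y of males. KO_noVILI and WT_noVILI had 505 CPM and 891 CPM of Xist, and 0.421 CPM and 0.234 CPM of Ddx3y, so ventilation cannot be told apart from sex wherever ventilated and unventilated groups are set side by side. Defining lung transcripts were abundant in both groups. The surfactant protein gene Sftpb stood at 3286 CPM in KO_VILIlow and 3841 CPM in WT_VILI, the alveolar type 1 gene Ager at 1797 CPM and 1640 CPM, and the endothelial gene Pecam1 at 893 CPM and 871 CPM.

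Of the 13458 genes tested, 200 (1.49 percent) had an adjusted p under 0.05 in the authors' deposited table and are termed called. Of these, 140 (1.04 percent) were higher and 60 (0.446 percent) were lower in KO_VILIlow than in WT_VILI. The median log2 fold change over the tested genes was -0.01, with a 10th percentile of -0.34 and a 90th percentile of 0.34. Called higher genes had a median of 1.38 in the authors' deposited table and called lower genes one of -1.30. Genes called with a change of 1 log2 or more were 110 higher and 43 lower, and with 2 log2 or more 25 higher and 9 lower. In 9 called genes 1 group lay under a rebuilt 1 CPM, 7 of them higher and 2 lower in KO_VILIlow. Fold changes of such genes are fitted values and not bounds.

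**Figure D1:**
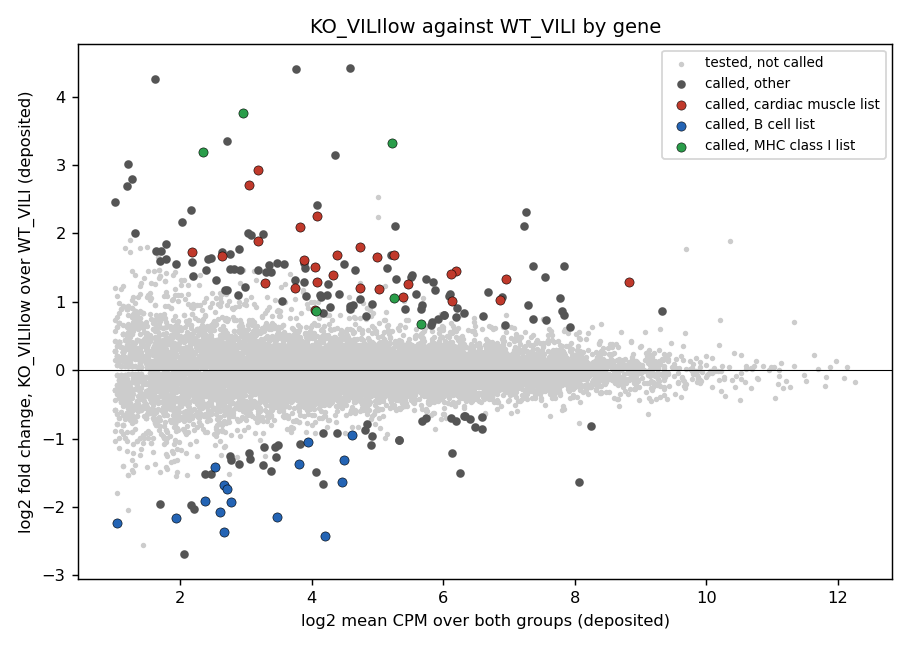
Each point is 1 tested gene, with the log2 mean CPM of both groups on the horizontal axis and the log2 fold change of KO_VILIlow over WT_VILI on the vertical axis, both from the authors' deposited table. Called genes of the cardiac muscle list (28, red) lie above 0, called genes of the B cell list (16, blue) lie below 0, and called MHC class I genes (major histocompatibility complex, 6, green) lie above 0; Cldn4 and BC018473 lie off the scale and are not drawn.

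The called genes fell into a few recognisable groups when read against 42 gene lists of cell types and pathways. Cardiac muscle genes made up the largest, with 28 of 47 tested members higher and none lower in the authors' deposited table. B cell genes made up the largest group of lower genes, with 16 of 31 lower and none higher. Smaller numbers of genes of IL-6 signalling, chemokines, metallothioneins, platelets and MHC class I were higher. Of the 200 called genes, 98 stood in at least 1 list and 102 in none.

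**Figure D2:**
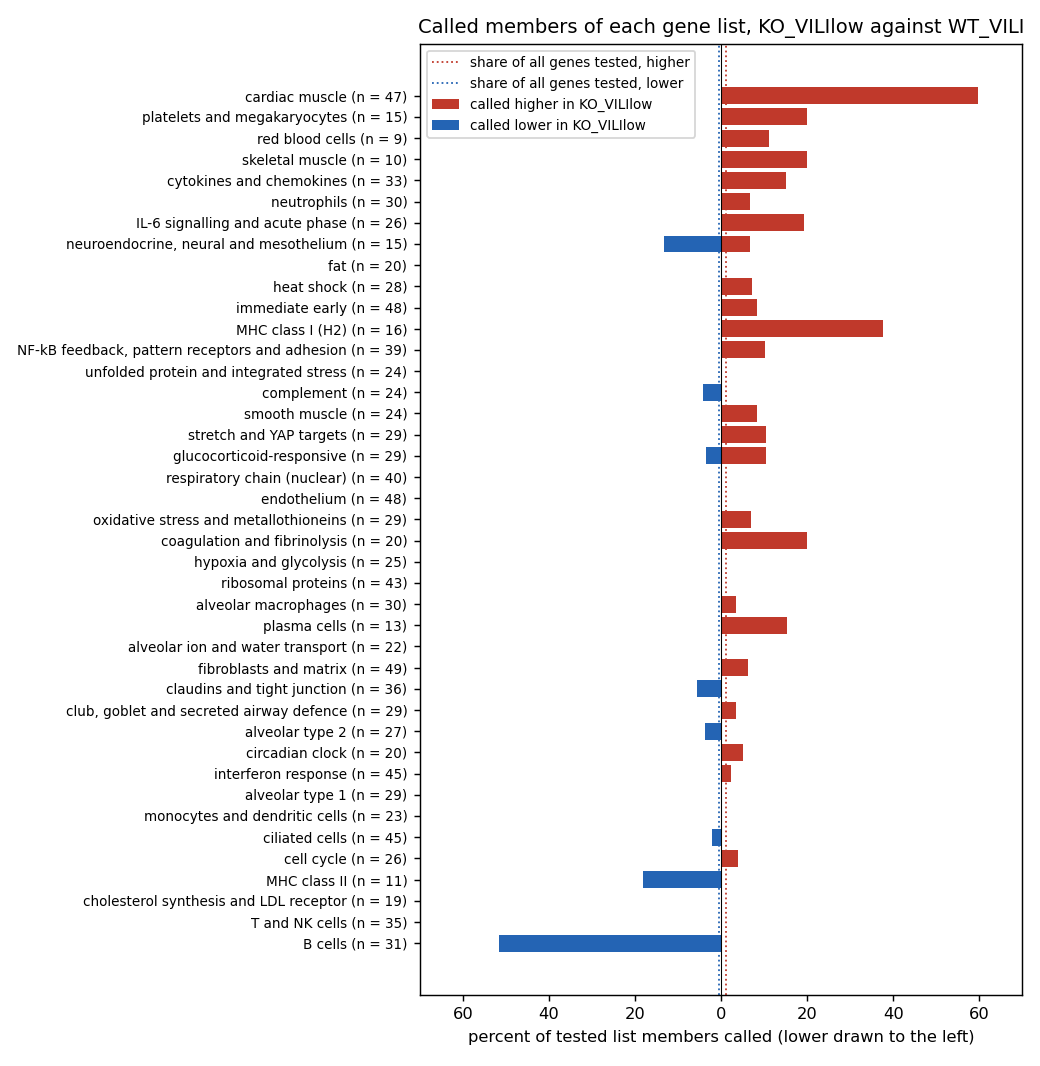
Bars give the percent of each list's tested members (n) that were called in KO_VILIlow against WT_VILI, higher ones to the right in red and lower ones to the left in blue, and lists are ordered by their median log2 fold change. Dotted lines give the share of all 13458 tested genes called, 1.04 percent higher and 0.446 percent lower. Cardiac muscle stands out on the right and B cells on the left.

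Cardiac muscle transcripts were higher in KO_VILIlow. The median log2 fold change of the 47 list members was 1.32 in the authors' deposited table, against -0.01 over all tested genes, and 45 members were above 0. Mybpc3, which encodes a myosin-binding protein of the cardiac thick filament, stood at a rebuilt 16.1 CPM in KO_VILIlow and 13.02 CPM in KO_VILIhigh, against 2.12 CPM in WT_VILI, and at 3.41 CPM in KO_noVILI, against 4.92 CPM in WT_noVILI. In KO_VILIlow its log2 fold change was 2.93 with an approximate standard error (SE) of 0.34 (adjusted p = 3.34e-14 in the authors' deposited table). The SE was taken as the size of the fold change over the normal quantile of its p. Among 5 groups both ventilated knockouts were thus the highest and WT_VILI the lowest for this gene.

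Sarcomere genes of the thick and thin filaments went the same way. Tnnt2, cardiac troponin T, had 58.1 CPM in KO_VILIlow and 38.0 CPM in KO_VILIhigh, against 18.0 CPM in WT_VILI, and 15.6 CPM in KO_noVILI, against 37.0 CPM in WT_noVILI, rebuilt from the authors' deposited tables. The corresponding log2 fold change in KO_VILIlow was 1.69 (SE 0.29, adjusted p = 2.15e-06 in the authors' deposited table). Myh6, the alpha heavy chain of cardiac myosin, stood at 641 CPM in KO_VILIlow against 263 CPM in WT_VILI, with a log2 fold change of 1.29 (adjusted p = 0.0241 in the authors' deposited table). The atrial light chains Myl7 and Myl4 were at 1.41 and 1.45, the giant elastic protein gene Ttn at 1.34, and the Z-disc genes Actn2 and Csrp3 at 1.81 and 1.61, all called in the authors' deposited table. Every one of these was among the called higher genes, whereas Myh7, the slow myosin heavy chain, stood at 0.60 (adjusted p = 0.37) in the same table.

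Calcium-handling, energy and hormone genes of heart muscle were also among the 28. Sln and Pln encode sarcolipin and phospholamban, small inhibitors of the sarcoplasmic calcium pump. Sln had 22.9 CPM in KO_VILIlow and 22.3 CPM in KO_VILIhigh, against 5.37 CPM in WT_VILI, and 7.55 CPM in KO_noVILI, against 13.2 CPM in WT_noVILI, rebuilt from the authors' deposited tables. The log2 fold changes in KO_VILIlow were 2.09 for Sln (adjusted p = 1.3e-08) and 1.51 for Pln (adjusted p = 0.00102) in the authors' deposited table. Mb, the oxygen store myoglobin, and Ckm, muscle creatine kinase, were at 1.65 and 1.68, both called in that table. Nppa, the atrial natriuretic peptide, was at 2.70 (adjusted p = 0.00847 in the authors' deposited table), with a rebuilt 14.4 CPM in KO_VILIlow against 2.22 CPM in WT_VILI. The actin-binding repeat protein gene Xirp1 was at 2.26 with an SE of 0.37 in the authors' deposited table. Members that were not called include Ryr2, the calcium release channel, at 1.02 (adjusted p = 0.097) and Des, desmin, at 0.49 (adjusted p = 0.30), in the same table.

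The summed level of the cardiac list was 2631 CPM in KO_VILIlow and 1955 CPM in KO_VILIhigh, against 1247 CPM in WT_VILI, and 966 CPM in KO_noVILI, against 1752 CPM in WT_noVILI, from levels rebuilt from the authors' deposited tables. KO_VILIlow thus had the highest sum of the 5 groups and KO_noVILI the lowest. The list's median was 0.81 with 3 members called higher in KO_VILIhigh against WT_VILI, where 2.43 percent of 13558 tested genes were called (1.75 percent higher, 0.679 percent lower), and -1.08 with 20 members called lower in KO_noVILI against WT_noVILI, where 5 percent of 13519 were called (2.11 percent higher, 2.89 percent lower), each in the authors' deposited table. In whole lung, more cells of a type and more RNA per cell cannot be told apart, and the amount of heart or vein muscle in the tissue taken was not tested. Skeletal muscle genes were called in 2 of 10 cases, the myosin light chain Myl1 at 3.01 and the calcium pump Atp2a1 at 2.17 in the authors' deposited table. Among 24 smooth muscle genes the contractile protein gene Cnn1 (0.70) and the coactivator gene Myocd (1.62) were called higher, with a list median of 0.21 in that table.

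**Figure D3:**
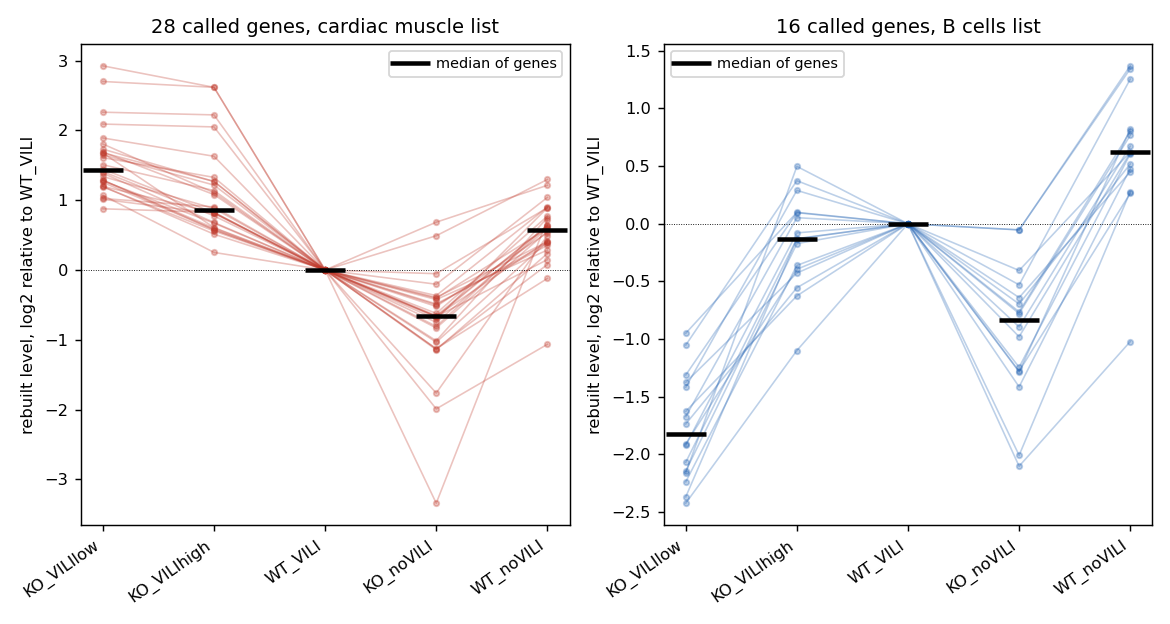
Each line is 1 called gene of the cardiac muscle list (left, 28 genes) or the B cell list (right, 16 genes), with its rebuilt level in each of the 5 groups on a log2 scale relative to WT_VILI, and black bars are medians over genes. Cardiac genes are highest in KO_VILIlow and mostly below WT_VILI in KO_noVILI, while B cell genes are below WT_VILI in KO_VILIlow and mostly close to it in KO_VILIhigh, H2-Ob excepted. There are no values per library, so no error bars are drawn.

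Promoters of 3 called sarcomere genes are printed because each holds a CArG box, the element bound by serum response factor in muscle and immediate early genes. They are the 250 bases before the transcription start in RefSeq annotation of GRCm38.p6, which is not the build the authors aligned to. Each is written 5′ to 3′ on the gene's own strand, with capitals marking the match. Actc1, cardiac alpha actin, lies at chr2:114052876-114053125, minus strand, Myl7 at chr11:5898783-5899032, minus strand, and Myl3, a ventricular light chain, at chr9:110763428-110763677, plus strand.
Actc1: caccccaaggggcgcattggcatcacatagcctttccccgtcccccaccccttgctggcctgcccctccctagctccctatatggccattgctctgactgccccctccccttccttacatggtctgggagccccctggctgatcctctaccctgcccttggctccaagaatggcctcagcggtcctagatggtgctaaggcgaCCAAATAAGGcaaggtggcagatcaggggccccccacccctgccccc
Myl7: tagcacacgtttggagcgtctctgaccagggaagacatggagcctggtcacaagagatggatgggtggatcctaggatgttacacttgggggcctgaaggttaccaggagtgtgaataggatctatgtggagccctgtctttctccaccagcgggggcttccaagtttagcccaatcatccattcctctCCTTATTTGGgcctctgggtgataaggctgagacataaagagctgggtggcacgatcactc
Myl3: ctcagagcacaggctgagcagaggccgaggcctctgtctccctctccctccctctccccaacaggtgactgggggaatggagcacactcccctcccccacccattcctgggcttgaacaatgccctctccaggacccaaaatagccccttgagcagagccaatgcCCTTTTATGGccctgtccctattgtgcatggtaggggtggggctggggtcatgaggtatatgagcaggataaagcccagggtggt
The first base of the match lies at -47, -61 and -85 from the start in that order. The log2 fold changes in KO_VILIlow against WT_VILI were 1.03, 1.41 and 1.68 in the authors' deposited table. Searched on both strands, the CArG box stood in 5 of 30 promoters (16.7 percent) of 25 called cardiac genes, and in 1.47 percent of 32851 promoters. A match is a description of these letters and does not show a site in use.

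B cell transcripts were lower in KO_VILIlow. The median log2 fold change of 31 members was -1.38 in the authors' deposited table, and 29 were below 0. Ms4a1, which encodes the B cell surface protein CD20, stood at 2.85 CPM in KO_VILIlow and 10.2 CPM in KO_VILIhigh, against 10.8 CPM in WT_VILI, and 7.49 CPM in KO_noVILI, against 25.8 CPM in WT_noVILI, rebuilt from the authors' deposited tables. KO_VILIlow was the lowest of the 5 groups, and KO_VILIhigh was close to WT_VILI. The log2 fold change of Ms4a1 in KO_VILIlow was -1.92 with an SE of 0.39 (adjusted p = 0.000256 in the authors' deposited table). Cd79b, a signalling chain of the antigen receptor, had 12.9 CPM in KO_VILIlow and 34.1 CPM in KO_VILIhigh, against 32.0 CPM in WT_VILI, rebuilt from those tables, and a log2 fold change of -1.31 in KO_VILIlow (adjusted p = 4.88e-05 in the authors' deposited table).

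Receptor, signalling and homing genes of B cells shared this direction. The other antigen receptor chain, Cd79a, was at -1.05, the complement receptor Cr2 at -2.24, and the inhibitory receptors Cd22 and Siglecg at -1.38 and -1.91 in the authors' deposited table. Cr2 stood at a rebuilt 0.723 CPM in KO_VILIlow, so its fold change is a fitted value at low abundance. The kinase gene Blk was at -1.67, the scaffold gene Bank1 at -1.74, the follicle homing receptor Cxcr5 at -2.07, the transcription factor gene Spib at -1.42 and Fcrla, an Fc receptor-like gene, at -2.16, all called in the same table. Faim3, the receptor for IgM, was at -2.37 with 2.07 CPM in KO_VILIlow against 10.7 CPM in WT_VILI, from the authors' deposited table. H2-Ob had the lowest log2 fold change of the list, at -2.43 (adjusted p = 7.91e-16 in the authors' deposited table), with a rebuilt 5.78 CPM in KO_VILIlow and 14.5 CPM in KO_VILIhigh, against 31.0 CPM in WT_VILI. It encodes a chain of H2-O, which limits antigen loading in B cells, and its partner H2-Oa was at -1.52 (adjusted p = 0.0221 in the same table). Unlike Ms4a1, H2-Ob was also called lower in KO_VILIhigh against WT_VILI, at -1.10 (adjusted p = 0.00668 in the authors' deposited table). Both genes lie in the H2 region of chromosome 17, where strain differences cannot be told apart from the knockout, and both were called lower in KO_noVILI against WT_noVILI, at -2.29 and -1.40 in the authors' deposited table. H2-Ob and H2-Oa were the 2 called members of 11 MHC class II genes, while H2-Ab1, H2-Aa and Cd74, which other antigen-presenting cells also make, were at -0.23, -0.40 and 0.01 and were not called in the authors' deposited table.

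The summed level of the B cell list was 261 CPM in KO_VILIlow and 494 CPM in KO_VILIhigh, against 474 CPM in WT_VILI, and 322 CPM in KO_noVILI, against 624 CPM in WT_noVILI, from levels rebuilt from the authors' deposited tables. Fewer B cells and less RNA per cell cannot be told apart here. Plasma cell genes, in contrast to the B cell list, had 2 of 13 members higher and none lower in the authors' deposited table. As a list they were not shifted, with a median of 0.06, 7 members above 0 and 6 below. Igj, the joining chain of secreted antibody, stood at 254 CPM in KO_VILIlow and 295 CPM in KO_VILIhigh, against 51.1 CPM in WT_VILI, and 206 CPM in KO_noVILI, against 43.8 CPM in WT_noVILI, rebuilt from those tables. For Igj the log2 fold change in KO_VILIlow was 2.31 (SE 0.35, adjusted p = 2.16e-08 in the authors' deposited table). Derl3, a factor for disposing of misfolded secretory proteins, was at 1.74 (adjusted p = 0.0238 in that table). Igj and Derl3 were also called higher in KO_noVILI against WT_noVILI, at 2.24 and 1.45. Of 35 T and NK cell genes none was called, with a median of -0.35 and 30 below 0 in the authors' deposited table, where the T cell genes Cd3e, Cd4 and Cd8a stood at 0.20, 0.02 and -0.60, and the cytotoxic granule gene Nkg7 and the interleukin-2 receptor gene Il2rb at -1.04 and -0.60. None of 23 genes of monocytes and dendritic cells was called (median -0.14).

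Genes of the IL-6 and leukaemia inhibitory factor (LIF) axis were higher in part in KO_VILIlow. In the authors' deposited table the IL-6 and acute phase list had 5 of 26 members called higher and none lower, with a median of 0.42. Lif, a cytokine of the IL-6 family, stood at 52.3 CPM in KO_VILIlow and 109 CPM in KO_VILIhigh, against 18.6 CPM in WT_VILI, and 5.73 CPM in KO_noVILI, against 8.01 CPM in WT_noVILI, rebuilt from the authors' deposited tables. For Lif the log2 fold change in KO_VILIlow was 1.49 (SE 0.30, adjusted p = 0.000179 in the authors' deposited table). Socs3, the feedback inhibitor that these receptors induce, had 338 CPM in KO_VILIlow and 531 CPM in KO_VILIhigh, against 118 CPM in WT_VILI, and 46.9 CPM in KO_noVILI, against 40.5 CPM in WT_noVILI, rebuilt from those tables. Its log2 fold change in KO_VILIlow was 1.52 (SE 0.21, adjusted p = 4.2e-10 in the authors' deposited table). For both genes KO_VILIlow lay between WT_VILI and KO_VILIhigh, and the unventilated groups lay lowest. Il6 itself stood at a rebuilt 21.9 CPM in KO_VILIlow against 12.9 CPM in WT_VILI and was not called (0.76, adjusted p = 0.346 in the authors' deposited table). The kinase gene Pim1 (0.90) and the soluble pattern receptor gene Ptx3 (1.44) were called in the same table, and the acute phase protein gene Saa3 (2.45) was called with WT_VILI at a rebuilt 0.625 CPM.

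The promoter of Socs3 is shown for the dyad bound by the STAT factors that act below IL-6 and LIF receptors, written TTCNNNGAA, and those of Cxcl1 and Cxcl2, which lie in a chemokine cluster on chromosome 5, for the NF-kB element GGG, any 2 bases and TTTCC. All are the 250 bases before the start from RefSeq, GRCm38.p6, on the gene's own strand, with matches on either strand in capitals. Socs3 lies at chr11:117969367-117969616, minus strand, Cxcl1 at chr5:90890995-90891244, plus strand, and Cxcl2 at chr5:90903649-90903898, plus strand.
Socs3: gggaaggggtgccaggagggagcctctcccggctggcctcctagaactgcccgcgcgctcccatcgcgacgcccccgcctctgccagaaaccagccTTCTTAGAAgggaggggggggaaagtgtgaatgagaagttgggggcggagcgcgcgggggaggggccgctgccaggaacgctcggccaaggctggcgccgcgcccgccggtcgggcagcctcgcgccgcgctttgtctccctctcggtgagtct
Cxcl1: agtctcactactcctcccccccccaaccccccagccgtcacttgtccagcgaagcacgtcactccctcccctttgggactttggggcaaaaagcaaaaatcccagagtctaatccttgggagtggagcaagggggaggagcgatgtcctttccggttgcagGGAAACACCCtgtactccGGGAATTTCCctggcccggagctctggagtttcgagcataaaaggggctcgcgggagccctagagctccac
Cxcl2: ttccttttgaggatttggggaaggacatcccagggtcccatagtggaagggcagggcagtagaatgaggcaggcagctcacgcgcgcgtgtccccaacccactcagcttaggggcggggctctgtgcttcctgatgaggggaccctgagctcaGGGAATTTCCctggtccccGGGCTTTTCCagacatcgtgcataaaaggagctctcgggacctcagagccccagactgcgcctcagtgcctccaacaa
The Socs3 match began at -154 from the start, the matches of Cxcl1 at -89 and -71, and those of Cxcl2 at -97 and -78. Over 32851 promoters, 7.02 percent held TTCNNNGAA, 1.41 percent held the NF-kB element, and 0.0244 percent held the NF-kB element at least 2 times. Among 173 promoters of called genes the shares were 5.2, 2.89 and 1.16 percent in that order. The last share is 2 promoters, those of Cxcl1 and Cxcl2 printed here for their matches, so it is no separate result. A match says only that these letters are present.

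Chemokine and cytokine genes were higher in part. In the authors' deposited table that list had 5 of 33 members called higher, none lower, and 27 were above 0, with a median of 0.50. Cxcl2, a chemokine that draws neutrophils, had 22.01 CPM in KO_VILIlow and 62.4 CPM in KO_VILIhigh, against 7.78 CPM in WT_VILI, and 1.59 CPM in KO_noVILI, against 0.255 CPM in WT_noVILI, rebuilt from the authors' deposited tables. In KO_VILIlow the log2 fold change of Cxcl2 was 1.5 (SE 0.37, adjusted p = 0.0098 in the authors' deposited table). Cxcl1, which acts on the same receptor, was at 0.92 with 25.4 CPM in KO_VILIlow and 81.9 CPM in KO_VILIhigh, against 13.4 CPM in WT_VILI (adjusted p = 0.034 in the authors' deposited table for KO_VILIlow). Both were highest in KO_VILIhigh. Cxcl1 was also called higher in KO_noVILI against WT_noVILI, at 1.63, with a rebuilt 4.99 CPM against 1.61 CPM (adjusted p = 0.0213 in the authors' deposited table). In that unventilated comparison 4 of the list's 33 members were called higher and none lower, with a median of 0.27. There 2.11 percent of all tested genes were called higher. Ppbp, a platelet chemokine, was at 1.99 and Il1rn, the interleukin-1 receptor antagonist, at 1.07, both called in KO_VILIlow against WT_VILI. Of these, Ppbp was also called higher in KO_noVILI against WT_noVILI, at 1.87. The early cytokines Tnf and Il1b were at 0.60 (adjusted p = 1) and 0.68 (adjusted p = 0.604) in the authors' deposited table, and the monocyte chemokine Ccl2 at 0.47 (adjusted p = 1), with a rebuilt 11.5 CPM in KO_VILIlow and 66.6 CPM in KO_VILIhigh, against 8.31 CPM in WT_VILI.

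Immediate early genes leaned upward with few calls. Of 48 tested members 40 were above 0, with a median of 0.31, and 4 were called higher and none lower in the authors' deposited table. The called ones were Pim1, the synaptic and stress-induced gene Arc (1.095), the orphan receptor gene Nr4a3 (0.66) and the phosphatase gene Dusp5 (1.01). Egr1, a transcription factor of this class, stood at 973 CPM in KO_VILIlow and 2956 CPM in KO_VILIhigh, against 668 CPM in WT_VILI, and 86.4 CPM in KO_noVILI, against 381 CPM in WT_noVILI, rebuilt from the authors' deposited tables. It was not called in KO_VILIlow (0.54, SE 0.26, adjusted p = 0.798 in the authors' deposited table). Fos and Junb, parts of the AP-1 factor, stood at 0.23 (adjusted p = 1) and 0.63 (adjusted p = 0.11) in the same table. KO_VILIlow lay close to WT_VILI for Fos and far below KO_VILIhigh, with a rebuilt 283 CPM in KO_VILIlow and 908 CPM in KO_VILIhigh, against 241 CPM in WT_VILI. In KO_VILIhigh against WT_VILI 31 of the list's 48 tested members were called higher, with a median of 0.90 in the authors' deposited table. There 1.75 percent of all tested genes were called higher.

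Genes of NF-kB feedback and pattern recognition had 4 of 39 members called higher, with no lower call, in the authors' deposited table, with a median of 0.25. Cd14, the co-receptor for bacterial lipopolysaccharide, had 92.6 CPM in KO_VILIlow and 138 CPM in KO_VILIhigh, against 43.8 CPM in WT_VILI, rebuilt from the authors' deposited tables. Cd14 had a log2 fold change of 1.08 in KO_VILIlow (adjusted p = 0.000141 in the authors' deposited table), and Tnfaip2, a gene induced by tumour necrosis factor, was at 0.81 (adjusted p = 0.00248). Among 29 stretch and YAP target genes 3 were called higher in that table. They were Plat, tissue plasminogen activator (1.15), Ankrd1, a titin-associated YAP target that the cardiac list holds too (1.01), and Plaur, the urokinase receptor (0.66). Cd14 and Plat were also called higher in KO_noVILI against WT_noVILI, at 0.59 and 0.66. Neutrophil genes were higher in 2 of 30 cases, the granule protein gene Ngp (0.84) and Chi3l3 (1.36), with 26 members above 0 and a median of 0.43 in the authors' deposited table. Ngp, but not Chi3l3, was also called higher in KO_noVILI against WT_noVILI, at 2.93 with WT_noVILI at a rebuilt 0.781 CPM. The summed level of the neutrophil list was 1929 CPM in KO_VILIlow and 2528 CPM in KO_VILIhigh, against 1533 CPM in WT_VILI, rebuilt from those tables. Its part in the cytokine results was not tested.

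**Figure D4:**
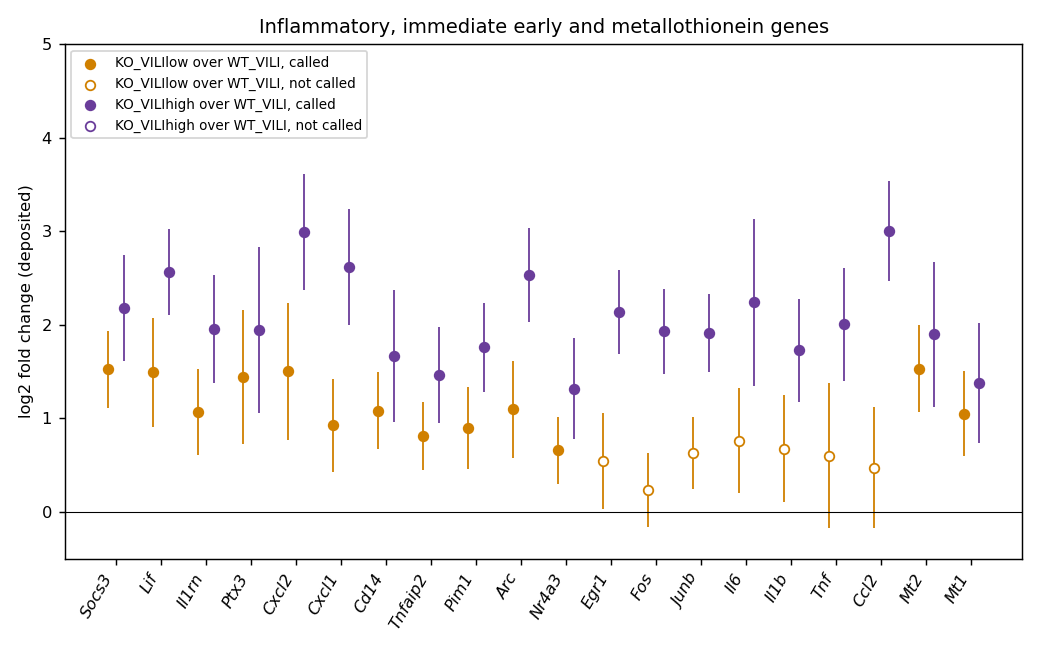
Points are log2 fold changes from the authors' deposited tables of KO_VILIlow (orange) and KO_VILIhigh (purple) over WT_VILI for 20 inflammatory, immediate early and metallothionein genes, filled where called, and bars are approximate 95 percent intervals. Both comparisons share WT_VILI. Socs3, Lif, Cxcl2 and Mt2 are called in both, while Egr1, Fos, Junb, Il6, Il1b, Tnf and Ccl2 are called in KO_VILIhigh and open for KO_VILIlow.

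Metallothionein genes were higher. Mt2, which encodes a zinc-binding protein induced by metals, glucocorticoids and IL-6, had 244 CPM in KO_VILIlow and 314 CPM in KO_VILIhigh, against 84.6 CPM in WT_VILI, and 7.66 CPM in KO_noVILI, against 9.0 CPM in WT_noVILI, rebuilt from the authors' deposited tables. Its log2 fold change in KO_VILIlow was 1.53 (SE 0.24, adjusted p = 1.05e-07 in the authors' deposited table), and its neighbour Mt1 was at 1.05 (adjusted p = 0.00151). The 3 ventilated groups stood well above the unventilated ones for Mt2, and both knockouts above wild type among them. The Mt2 promoter is printed for its metal response elements, with the core TGCNCNC in capitals on either strand (RefSeq, GRCm38.p6, chr8:94172368-94172617, plus strand).
Mt2: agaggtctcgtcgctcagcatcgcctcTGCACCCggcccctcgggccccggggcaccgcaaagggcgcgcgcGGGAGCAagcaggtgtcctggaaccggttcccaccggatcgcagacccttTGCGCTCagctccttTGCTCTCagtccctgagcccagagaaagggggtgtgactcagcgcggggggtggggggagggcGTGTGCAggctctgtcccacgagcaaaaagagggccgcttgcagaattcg
It held 5 matches, which began at -223, -178, -128, -113 and -50 from the start. At least 5 were found in 0.344 percent of 32851 promoters and at least 1 in 44.4 percent. Among 173 promoters of called genes these shares were 0.578 and 47.4 percent. The first of these is 1 promoter, that of Mt2 printed here for its matches, so it is no separate result. In the list of oxidative stress and metallothionein genes Mt1 and Mt2 were the 2 called of 29 in the authors' deposited table (median 0.14).

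Stress and hormone lists held few calls. Heat shock genes were above 0 in 27 of 28 cases with a median of 0.32, and 2 were called higher in the authors' deposited table. They were the small chaperone gene Hspb1 (0.95, adjusted p = 7.92e-05) and Hsph1, a partner of HSP70 (1.12, adjusted p = 0.00804). In KO_noVILI against WT_noVILI 13 of these 28 genes were called higher and none lower, with a median of 0.46. There 2.11 percent of all tested genes were called higher, and Hspb1 and Hsph1 stood at 0.71 and 1.58, both called. Hspb1 stood at 205 CPM in KO_VILIlow and 187 CPM in KO_VILIhigh, against 106 CPM in WT_VILI, and 99.99 CPM in KO_noVILI, against 61.0 CPM in WT_noVILI, rebuilt from the authors' deposited tables. Of 29 glucocorticoid-responsive genes the authors' deposited table called 3 higher and 1 lower, with Mt1 and Mt2 beside the cell cycle inhibitor Cdkn1a (0.80) on the higher side and the stress sensor Sesn1 (-0.74) on the lower. None was called of 24 unfolded protein response genes (median 0.24) or of 25 hypoxia and glycolysis genes (median 0.14) in that table. Interferon response genes had 1 of 45 called, the GTPase gene Tgtp2 at 0.90, with a median of -0.11, and clock genes 1 of 20, the repressor gene Bhlhe40 at 0.63, with a median of -0.11, in the authors' deposited table. Cdkn1a was also the 1 called gene of 26 in the cell cycle list, where 22 members were below 0 and the median was -0.26 in that table. Both Cdkn1a and Tgtp2 were called higher in KO_noVILI against WT_noVILI too, at 0.92 and 1.15. Cholesterol synthesis genes were below 0 in 17 of 19 cases with a median of -0.32 and none called, while the lists of nuclear respiratory chain (40 genes) and ribosomal protein genes (43) had medians of 0.16 and 0.12 with none called, in the authors' deposited table.

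Coagulation, platelet and red cell genes were higher in part. In the coagulation and fibrinolysis list 4 of 20 genes were called higher in the authors' deposited table, the cofactor gene F5 at 1.47 (adjusted p = 0.00137), F7, a protease that starts clotting, at 1.32 (adjusted p = 0.0206), Plat and Plaur. Platelet and megakaryocyte genes were above 0 in 14 of 15 cases with a median of 0.69, and 3 were called in the authors' deposited table. Itga2b, a chain of the fibrinogen receptor, had 21.0 CPM in KO_VILIlow and 22.4 CPM in KO_VILIhigh, against 8.56 CPM in WT_VILI, and 9.03 CPM in KO_noVILI, against 6.02 CPM in WT_noVILI, rebuilt from the authors' deposited tables. Itga2b had a log2 fold change of 1.29 in KO_VILIlow (adjusted p = 0.000103), beside Tubb1, the platelet tubulin, at 1.33 and Ppbp at 1.99, in the authors' deposited table. Both ventilated knockout groups stood above the other 3 groups for Itga2b. In the red blood cell list the median was 0.66 and 1 of 9 genes was called, on the higher side, in the authors' deposited table. The haemoglobin gene Hbb-bs was at 1.77 with an SE of 0.765 (adjusted p = 0.593) in that table. The list's summed level was 3647 CPM in KO_VILIlow and 3315 CPM in KO_VILIhigh, against 1197 CPM in WT_VILI, and 6592 CPM in KO_noVILI, against 4249 CPM in WT_noVILI, rebuilt from the authors' deposited tables. WT_VILI was thus the lowest of the 5 groups, and the part of blood left in the lungs in the platelet and coagulation results was not tested. Complement genes had 1 of 24 called, Cr2, which lay under a rebuilt 1 CPM in KO_VILIlow.

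Matrix and macrophage genes showed single calls. Of 49 fibroblast and matrix genes 3 were higher in the authors' deposited table, with a median of 0.00. Adamts4, an aggrecan-cleaving protease, stood at 13.5 CPM in KO_VILIlow and 36.0 CPM in KO_VILIhigh, against 3.44 CPM in WT_VILI, rebuilt from the authors' deposited tables, with a log2 fold change of 1.97 in KO_VILIlow (adjusted p = 0.00145). The matrix metalloproteinase gene Mmp3 was at 1.09 and Nptx1 was the third, in the authors' deposited table. Chi3l3, a chitinase-like protein of macrophages and neutrophils, was the 1 called of 30 alveolar macrophage genes, at 1.36 (adjusted p = 8.91e-10 in the authors' deposited table). It stood at 270 CPM in KO_VILIlow and 252 CPM in KO_VILIhigh, against 105 CPM in WT_VILI, and 295 CPM in KO_noVILI, against 241 CPM in WT_noVILI, rebuilt from the authors' deposited tables, so that WT_VILI was lowest. None of 20 fat genes (median 0.33) and none of 48 endothelial genes (median 0.15) was called in that table.

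Claudins other than Cldn4 and the epithelial lists had few calls in KO_VILIlow against WT_VILI. In the authors' deposited table the tight junction list had 2 of 36 genes called, Cldn4 and Cldn8, a claudin that limits paracellular cation flow, and the median was 0.00. Cldn8 stood at 4.85 CPM in KO_VILIlow and 10.2 CPM in KO_VILIhigh, against 11.9 CPM in WT_VILI, and 9.30 CPM in KO_noVILI, against 13.6 CPM in WT_noVILI, rebuilt from the authors' deposited tables, and KO_VILIlow was the lowest. Its log2 fold change was -1.29 (SE 0.30, adjusted p = 0.00338 in the authors' deposited table). Cldn18, the main claudin of alveolar epithelium, was at -0.02 with an SE of 0.22, Cldn3 at 0.01 with an SE of 0.19, and Cldn5, the endothelial claudin, at 0.42 with an SE of 0.18, and none of these was called in the same table. Genes of alveolar ion and water transport had none of 22 called, with the sodium channel gene Scnn1a at 0.15 and the water channel gene Aqp5 at 0.38 in the authors' deposited table. Alveolar type 2 genes had 1 of 27 called, Chi3l1, a secreted chitinase-like protein, at -1.63 with 131 CPM in KO_VILIlow against 406 CPM in WT_VILI (adjusted p = 3.7e-07 in the authors' deposited table). Chi3l1 was likewise called lower in KO_VILIhigh against WT_VILI, at -1.67, and in KO_noVILI against WT_noVILI, at -1.56. Alveolar type 1 genes had none of 29 called (median -0.12). Ciliated cell genes were below 0 in 40 of 45 cases with a median of -0.18, and Sntn, a protein of the ciliary tip, was called at -1.37 in that table. Sntn was also called lower in KO_noVILI against WT_noVILI, at -1.24. In that unventilated comparison 12 of the 45 ciliated cell genes were called lower and none higher, with a median of -0.48. There 2.89 percent of all tested genes were called lower. Airway club, goblet and defence genes had 1 of 29 called, Ly6k at 4.26, with WT_VILI at a rebuilt 0.306 CPM from the authors' deposited tables. Ly6k was also called higher in KO_noVILI against WT_noVILI, at 1.59. In the list of neuroendocrine, neural and mesothelial genes Grp, gastrin-releasing peptide (-1.955), and Rprml (-2.02) were lower and Nptx1 higher of 15, and none of 10 sex-linked genes was called, in the authors' deposited table. Grp was also called lower in KO_VILIhigh against WT_VILI, at -2.98, and in KO_noVILI against WT_noVILI, at -2.42.

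MHC class I genes, most of which lie on chromosome 17, were called higher for 6 of 16 members, with no lower call, in the authors' deposited table, with a median of 0.30. H2-K2 stood at 67.6 CPM in KO_VILIlow and 91.7 CPM in KO_VILIhigh, against 6.75 CPM in WT_VILI, and 186 CPM in KO_noVILI, against 9.67 CPM in WT_noVILI, rebuilt from the authors' deposited tables. All 3 knockout groups were far above both wild type groups. Its log2 fold change was 3.33 in KO_VILIlow (adjusted p = 8.57e-26), and H2-M2 and H2-Bl were at 3.75 and 3.18 in the authors' deposited table. The classical genes H2-K1 and H2-D1, which present peptides on most cells, were at -0.19 and 0.04 and were not called in that table. Reads of these genes are shared with near-identical copies, so single values are uncertain. In gene order of GRCm38.p6, 116 tested genes lie from H2-K2 to H2-M2, of which 11 (9.48 percent) were called, 9 higher and 2 lower. All 11 were also called in the same direction in KO_noVILI against WT_noVILI in the authors' deposited tables. On chromosome 17 as a whole, 18 of 674 tested genes were called (2.67 percent), 14 of them in the same direction without ventilation. The background of these mice is mixed, and strain differences in this region cannot be told apart from the knockout.

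Cldn4 lies on chromosome 5, and few genes beside it were called. Of the 50 tested genes flanking it, 25 on each side, 1 was called, Hspb1, which lies 19 tested genes away, and their log2 fold changes ran from -0.28 to 0.95 with a median of 0.04 in the authors' deposited table. Pairs of near neighbours that were both called stood elsewhere, and were chosen after their values were seen. On chromosome 5 the lysosomal receptor gene Scarb2 was at 0.87 and the glycogen-binding gene Stbd1 at 2.12, and on chromosome 4 Fblim1, a filamin-binding gene, was at 1.36 beside Tmem82 at 1.84, and Tinagl1 at 0.73 near Serinc2 at 1.26, in the authors' deposited table. All 6 genes were also called higher in KO_noVILI against WT_noVILI, at 0.69, 1.74, 1.33, 2.54, 0.58 and 1.05 in that order, in the authors' deposited table. Of the chromosomes, 17 had the highest share of called genes and chromosome 4 came next with 21 of 843 (2.49 percent).

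Some of the largest single changes were in BC018473, a gene of no list, and in Nptx1. BC018473 on chromosome 11, chosen after its values were seen, stood at 47.5 CPM in KO_VILIlow and 14.3 CPM in KO_VILIhigh, against 0.0214 CPM in WT_VILI, rebuilt from the authors' deposited tables. In the unventilated comparison its fold change was exactly 0, so it was not tested there. Its rebuilt 0.238 CPM in both unventilated groups is also near the floor and is not read against WT_VILI. It was called in KO_VILIlow (adjusted p = 2.02e-72) and in KO_VILIhigh (adjusted p = 0.00508) in the authors' deposited tables, and no fold is given because WT_VILI is near the floor. Its neighbours in gene order, St6galnac2 and St6galnac1, both sialyltransferase genes, were at 0.78 (adjusted p = 0.0223) and 4.73 (adjusted p = 3.46e-05, below the abundance limit) in KO_VILIlow in the authors' deposited table. No source used here says that the counting used strand, so reads of overlapping neighbours cannot be told apart. Nptx1, a secreted pentraxin known from synapses, had 46.0 CPM in KO_VILIlow and 28.9 CPM in KO_VILIhigh, against 2.16 CPM in WT_VILI, and 3.05 CPM in KO_noVILI, against 1.47 CPM in WT_noVILI, rebuilt from the authors' deposited tables. In KO_VILIlow Nptx1 had a log2 fold change of 4.41 (SE 0.29, adjusted p = 1.48e-47 in the authors' deposited table), and none of the 4 genes on either side of it in gene order was called.

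Other genes among the 15 largest rises and 15 largest falls were Bdkrb2, the bradykinin B2 receptor, at 2.42 (adjusted p = 1.38e-11), Fam150a, a ligand of the receptor ALK, at 2.69 and Apobec2, a muscle deaminase-like gene, at 2.79 in the authors' deposited table. Bdkrb2 stood at 28.6 CPM in KO_VILIlow and 31.6 CPM in KO_VILIhigh, against 5.35 CPM in WT_VILI, and 21.5 CPM in KO_noVILI, against 8.05 CPM in WT_noVILI, rebuilt from those tables, and the 3 knockout groups were the highest. For Fam150a and Apobec2 WT_VILI lay at a rebuilt 0.613 and 0.608 CPM. On the lower side the metalloprotease-like gene Adam28 was at -1.97 and the cytoskeletal GTPase gene Septin3 at -1.69 in the authors' deposited table. Bdkrb2 was also called higher and Adam28 lower in KO_noVILI against WT_noVILI, at 1.42 and -1.33.

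The genotype difference was set beside that of unventilated mice, a comparison that shares no libraries with this one. Over 13093 genes tested in both, 184 were called in KO_VILIlow against WT_VILI and 650 in KO_noVILI against WT_noVILI. Both called 96 genes, which is 52.2 percent of the 184 and 14.8 percent of the 650, where 4.96 percent of all genes were called without ventilation and 1.41 percent with it. Of the 96, 39 were higher and 35 lower in both comparisons, and 22 went opposite ways, 21 of them higher in KO_VILIlow. The 16 called B cell genes were all lower in both, and 16 of the 22 opposite genes stood in the muscle lists. The other 88 were not called without ventilation, which does not show that they were equal there.

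**Figure D5:**
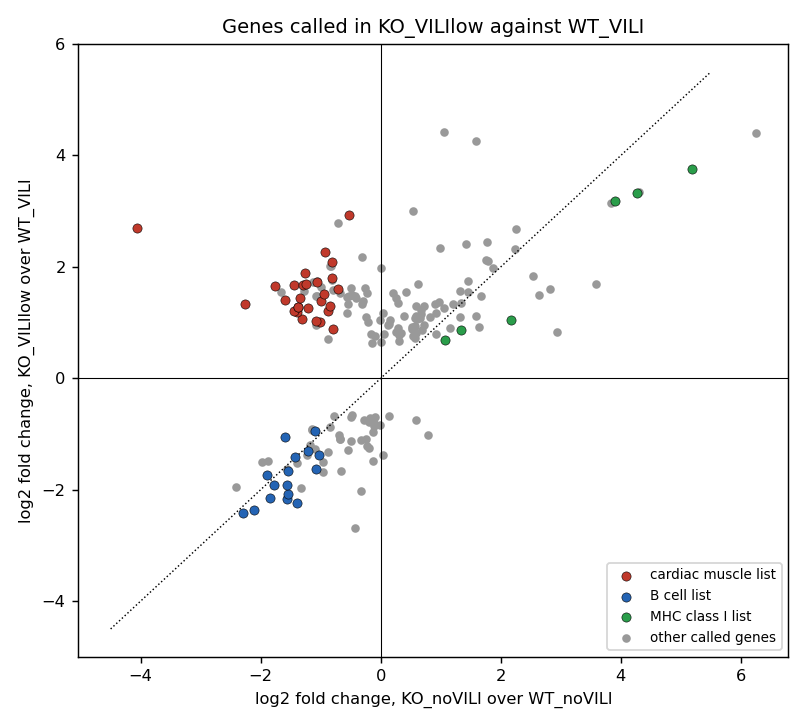
Each point is 1 gene called in KO_VILIlow against WT_VILI, with the log2 fold change of KO_noVILI over WT_noVILI on the horizontal axis and that of KO_VILIlow over WT_VILI on the vertical axis, from the authors' deposited tables; the dotted line marks equal values. Called B cell genes (blue) lie in the lower left and class I genes (green) in the upper right, near or below the line, while cardiac genes (red) lie in the upper left. Cldn4 and BC018473 are not drawn, and sex cannot be told apart from ventilation between the axes.

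The difference between the genotype effects itself was tested for each gene with an approximate z test on the deposited log2 fold changes, with Benjamini-Hochberg adjustment over 13093 genes. It called 147 genes (1.12 percent), 118 (0.901 percent) with a higher and 29 (0.221 percent) with a lower log2 fold change in KO_VILIlow against WT_VILI than in KO_noVILI against WT_noVILI. Of the 118, 33 were among the 47 cardiac list genes and 15 among the 48 immediate early genes. Of the 147, 61 were also called in KO_VILIlow against WT_VILI. Tnnt2 differed by 2.93 (SE 0.42, adjusted p = 8.58e-09) and Myh6 by 2.67 (SE 0.40, adjusted p = 4.11e-08). The immediate early list had 15 of 48 members called lower in KO_noVILI against WT_noVILI and 2 higher, in the authors' deposited table. There 2.89 percent of all tested genes were called lower and 2.11 percent higher. Egr1 differed by 2.68 (SE 0.49, adjusted p = 1.24e-05), from 0.54 in KO_VILIlow against WT_VILI and -2.14 in KO_noVILI against WT_noVILI in the authors' deposited tables, of which the second was called (adjusted p = 3.28e-05). Among cytokine and metallothionein genes Socs3 differed by 1.31 (SE 0.26, adjusted p = 9.66e-05), Mt2 by 1.76 (SE 0.35, adjusted p = 0.000117) and Lif by 1.97 (SE 0.39, adjusted p = 0.000136). For Socs3, Mt2 and Lif the deposited log2 fold changes without ventilation were 0.21, -0.23 and -0.48, (adjusted p = 0.739, 1 and 0.466), as the authors' deposited table gives them. For B cell genes the difference was called in no member, with -0.14 for Ms4a1 (SE 0.49) and -0.10 for Cd79b (SE 0.32), and for Igj it was 0.08 (SE 0.42).

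Of the 29 genes with a lower log2 fold change with ventilation than without, some kept their direction and others did not. Alpl, alkaline phosphatase, was called higher in both comparisons, at 1.68 in KO_VILIlow against WT_VILI and 3.59 in KO_noVILI against WT_noVILI in the authors' deposited tables. It stood at 56.4 CPM in KO_VILIlow against 17.6 CPM in WT_VILI, and 53.7 CPM in KO_noVILI against 4.45 CPM in WT_noVILI, rebuilt from those tables, so the 2 knockout groups lay closer together than the 2 wild type groups. Plcb1, a phospholipase of G protein signalling, was at -1.02 in KO_VILIlow against WT_VILI and 0.79 in KO_noVILI against WT_noVILI in the authors' deposited tables, the 1 gene called lower with ventilation and higher without. In the list of T and NK cells 4 of 35 genes had a lower log2 fold change with ventilation than without, against 0.221 percent of all genes. None of the 35 was called in KO_VILIlow. The chemokine gene Ccl5 was at -0.60 in KO_VILIlow against WT_VILI and 2.71 in KO_noVILI against WT_noVILI in the authors' deposited tables (difference -3.31, SE 0.69, adjusted p = 0.000346), and the granzyme gene Gzma at -0.37 and 2.12 (difference -2.49, SE 0.60, adjusted p = 0.00543).

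Between the knockout groups, the same test on the log2 fold changes of KO_VILIlow and KO_VILIhigh called 21 of 13222 genes (0.159 percent), 2 (0.0151 percent) higher and 19 (0.144 percent) lower in KO_VILIlow. WT_VILI cancels in this difference while its variance is still counted, which makes the test conservative. Of the 19, 10 were immediate early genes, from a list of 48 tested members. Fosb differed by -1.95 (SE 0.32, adjusted p = 1.33e-05), Fos by -1.70 (SE 0.31, adjusted p = 0.000155) and Egr1 by -1.59 (SE 0.35, adjusted p = 0.00927). The chemokines Ccl2, Ccl7, Ccl3 and Cxcl1 differed by -2.53, -2.12, -1.82 and -1.69. The B cell gene Fcrla differed by -2.67 (SE 0.63, adjusted p = 0.0206). The 2 genes higher in KO_VILIlow than in KO_VILIhigh were the clock gene Per3, by 1.18, and Angptl7, an angiopoietin-like gene, by 2.34. For cardiac genes no member was called, with a difference of 0.62 for Tnnt2 and 0.46 for Mybpc3, and for Socs3 and Mt2 the differences were -0.66 and -0.37, each with an adjusted p of 1.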

How the data were processed

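RNA was extracted with TRIzol from whole lungs and made into libraries with a TruSeq RNA kit, per the labels. Reads were aligned to mm9 with Bowtie 1.1.2 and compared with edgeR under R 3.0.1, per the submitters' processing notes. The counting step, the normalization and the edgeR settings are not given in the sources used here. The authors deposited 4 comparison tables of 21590 genes, each with a log2 fold change, a log2 mean CPM, a p-value and an adjusted p-value, and no values per library. Library depth is not known from them, and no count model, share interval or pairing check could be run.

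From these tables the level in CPM of each group was rebuilt from mean abundance and fold change, both as the authors deposited them, on the assumption that the mean is the average of the 2 groups. An approximate SE was taken as the size of the log2 fold change over the normal quantile of its p. Differences between comparisons were tested with an approximate z test, the variances summed, and Benjamini-Hochberg adjustment over all genes tested in both. The script for these steps was tested on simulated data. Genes needed a log2 mean CPM of at least 1 and a fold change other than 0 to count as tested. The deposited p-values were used as they stand, with an adjusted p under 0.05 as a call.

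The members, the 42 gene lists (1357 entries, 23 of them absent from the table) and the tests were chosen with earlier results of these data known. Genes named are the claudins and markers used as checks, the 15 largest called rises and falls without predicted genes, up to 4 called members of each list, up to 6 genes each way of each derived difference, and list members that show a list's range. A few genes that this rule selects are not reported here. Gene order and promoters came from RefSeq tables of GRCm38.p6, to which 21534 Entrez identifiers matched, and 27 symbols that had turned into dates were restored from them. No coordinates of the files were used. Alternatives were stricter and looser thresholds, other abundance limits, adjustment over the members alone, centring, leaving out X and Y, and a t distribution for the approximate test. The steps ran in Python 3.11.15 (numpy 2.4.6, scipy 1.17.1, pandas 2.3.3), and matplotlib 3.10.9 drew the figures.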

Additional observations from a re-analysis of the deposited data

Results flagged for a closer look

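The results below stood out because a gene's knockout effect differed between ventilated and unventilated mice, by the approximate test of the difference itself. All are log2 fold changes of KO_VILIlow over WT_VILI minus those of KO_noVILI over WT_noVILI, and ventilation cannot be told apart from sex in them. The muscle genes Ttn, Mybpc3, Mb and Xirp1 differed by 3.60, 3.45, 3.41 and 3.19. Nptx1 differed by 3.36, and Egr1, which was not called in KO_VILIlow against WT_VILI, by 2.68. On the other side stood Gm13157 at -2.27, Alpl at -1.91, Plcb1 at -1.81, Ccdc8 at -1.42, Lrat at -1.33 and H2-Q10 at -1.12, the last of which shares reads with near-identical genes.

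A further set stood out because the log2 fold changes of KO_VILIlow and KO_VILIhigh, each over WT_VILI, differed. Fcrla differed by -2.67, Cxcl1 by -1.69 and Egr1 by -1.59. KO_VILIlow and KO_VILIhigh were set apart by the study according to injury, so these differences are between groups sorted by an outcome.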

How the results depend on the processing

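The alternatives reuse the deposited fold changes, so they could not reverse a called direction. Centring moves every fold change by the small median of -0.01, while the smallest called change was 0.63 in size. No named gene changed sign by centring. At an adjusted p of 0.01, 126 genes were called (91 higher, 35 lower), and with a Bonferroni limit 75 (55 higher, 20 lower). The IL-6 list had 2 calls and the immediate early list 1 at 0.01, and the B cell list had 7 at a log2 mean CPM of at least 3, where fewer genes were tested. Genes called with and without ventilation numbered 56 at 0.01 in both (46 in the same and 10 in opposite directions), and those in the same direction numbered 46 at the higher abundance limit. That limit gave 92 differences from the unventilated comparison (76 higher, 16 lower). A t distribution in place of the normal gave 63 lower ones, and 91 differences between the knockout groups (14 higher, 77 lower), so counts of the approximate test depend on its distribution. The other 49 recomputed counts were within 1.5 times of the reported ones. They include the counts after centring, which equalled the reported ones (200 called, 140 higher and 60 lower) and are no separate check. Of 90 named genes 81 were called, and of these 24 lost their call at 0.01 and 42 under Bonferroni. No paired analysis was possible because the tables hold no values per library, and for the same reason no library could be left out in turn. With 2 libraries per group and unknown depth, genes near the abundance limit are the least certain.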

Other observations

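Below the abundance limit, 10 further genes were called in KO_VILIlow against WT_VILI in the authors' deposited table. Among them were Pax5, the transcription factor that sets B cell identity, at -2.62 (adjusted p = 0.00804), with a rebuilt 0.532 CPM in KO_VILIlow against 3.27 CPM in WT_VILI, and Treml1, a platelet receptor, at 2.48 (adjusted p = 0.0407). Cxcl5, a chemokine of epithelial cells that draws neutrophils, was at 2.43 (adjusted p = 0.0346), and Itgb8, an integrin chain that activates transforming growth factor beta, at -2.43 (adjusted p = 0.0358), in the same table. These 4 were chosen after their values were seen, and their fold changes are fitted values at low abundance.

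Among called genes in no list, again chosen after their values were seen, Has1, a synthase of hyaluronan, stood at a rebuilt 82.0 CPM in KO_VILIlow and 140 CPM in KO_VILIhigh, against 33.5 CPM in WT_VILI, with a log2 fold change of 1.29 in KO_VILIlow in the authors' deposited table. Dio2, which activates thyroid hormone, was at -1.66, Pde5a, a phosphodiesterase for cyclic GMP, at -0.81, and Pdgfb, a growth factor of vessel walls, at -0.83 in that table.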
